A study of Mus musculus with 7 samples.

Results

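Most mitochondrial proteins are made in the cytosol and have to be imported, and the genes described here encode the machinery for that step together with the CHCHD proteins, a family of small proteins with paired cysteines that are among its clients. The members were all entries of the expression tables whose symbol starts with Tomm, Timm, Chchd or Samm followed by a digit, and the rule used no measured value. It found 36 entries under 35 gene symbols among the 25912 entries listed, because Timm8a1 is listed as 2 entries. Of the 36 entries, 35 belong to protein-coding genes, and Tomm6os is an antisense transcript that overlaps Tomm6.

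The libraries were made with Smart-seq2, a full-length cDNA method for few cells, from 10 mouse oocytes each, and 7 libraries were analysed. GV oocytes are fully grown oocytes arrested in the first meiotic prophase with an intact nucleus, the germinal vesicle, and gave 2 libraries. The treatment field of these reads NO, whereas the methods describe DMSO at the same concentration for control oocytes of either stage, so whether they had DMSO is not settled. Oocytes matured in culture and labelled MII, for metaphase of the second meiotic division, gave the other libraries. Of these, 3 had DMSO, the solvent (control MII oocytes), and 2 had BYBX. BYBX is a small-molecule ligand that stabilizes G-quadruplexes in RNA, which are folded structures of stacked guanines. The labels give the genotype field as Control for GV and for MII with DMSO and as Treat for MII with BYBX, and no allele is named. All oocytes came from young females, aged 4 weeks, of C57BL/6 background that had been primed with gonadotropin, and the matured groups were cultured in M16 medium. The methods for these libraries name no dose of BYBX, and 1 μM is the dose named where their mRNA levels are combined with ribosome profiling. The paper reports that polar body emission fell as the BYBX dose rose. Few treated oocytes reached MII there, and their spindles were abnormal. Whether the oocytes treated with BYBX had been picked for a polar body is not given in the sources used here. A difference in stage between the BYBX and DMSO groups was therefore not tested. Nor is it stated which libraries came from separate mice or cultures, so the p-values measure the spread between these libraries, which may be technical.

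In import, the TOM complex of the outer membrane takes up nearly all precursors, and the SAM complex inserts barrel-shaped proteins into the same membrane. The TIM23 complex passes precursors with a presequence through or into the inner membrane, pulled by an import motor, and the TIM22 complex inserts carriers that the small TIM chaperones escort across the intermembrane space. Chchd4 oxidizes the cysteine pairs of small proteins that are thereby held in that space, many CHCHD proteins among them. A fully grown oocyte transcribes almost nothing and lives on stored transcripts, many of which lose their poly(A) tails and are degraded during maturation, while others with cytoplasmic polyadenylation elements near their ends gain longer tails. The libraries were primed with oligo-dT, so a transcript lost and a transcript whose tail was lost cannot be told apart. A library pools 10 oocytes, so fewer oocytes with a transcript and less of it in each cannot be told apart either.

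All values are FPKM, fragments per kilobase of transcript relative to the fragments mapped, which the authors scaled to an external RNA spike-in; libraries of different batches were also brought to the level of their GV oocytes. On this scale the total FPKM was 402113 and 489569 in GV libraries, 109732 to 127254 in MII libraries with DMSO, and 201482 and 246710 with BYBX, so every comparison carries a shift of the whole transcriptome. Where a direction turns once each library is set to the same total FPKM, that value is given beside it. All 10 oocyte markers reached 1 FPKM in at least 1 library. Of 10 granulosa and cumulus cell markers, 3 did, and their summed level was 5.96 and 12.2 FPKM in GV libraries and 2.07 to 2.80 FPKM in the 5 MII libraries, with Tnfaip6 at 0 in 6 of the 7 libraries; their part in the results was not tested. The 5 erythrocyte markers summed to at most 1.13 FPKM.

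Import transcripts were abundant in GV oocytes, scarce in control MII oocytes and in between with BYBX. The summed FPKM of the 36 entries was 2594 and 2549 in GV libraries, 135, 137 and 162 in MII libraries with DMSO, and 973 and 719 with BYBX, and the groups did not overlap. The share of the total FPKM, which does not depend on the scaling of a library, was 0.530% and 0.634% in GV, 0.111% to 0.128% with DMSO, and 0.357% and 0.394% with BYBX. The import transcripts therefore made up a smaller part of the measured transcriptome in control MII oocytes than in GV oocytes, and BYBX libraries lay between them.

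**Figure D1:**
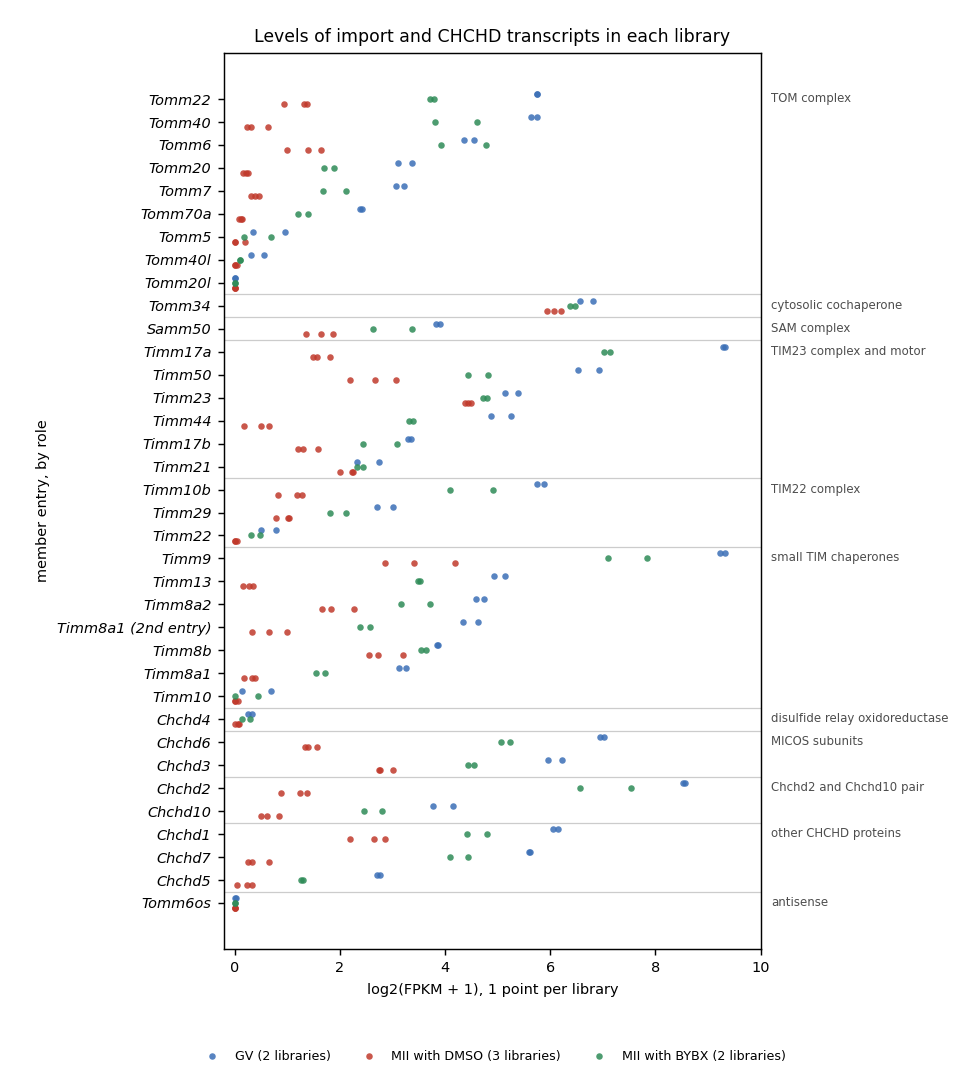
Level of each of the 36 member entries as log2(FPKM + 1), with 1 point per library and the entries grouped by role. GV libraries are blue, MII libraries with DMSO red and MII libraries with BYBX green; for most members the red points lie far to the left, while those of Tomm34, Timm23, Timm21 and Timm8b stay near the others.

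At least 1 FPKM on average was reached by 29 members in GV oocytes, 17 in control MII oocytes and 29 with BYBX. At least 10 FPKM was reached by 21, 3 and 17 members, and at least 100 FPKM by 6, 0 and 3. The median member had 17.9 FPKM in GV oocytes, 0.769 FPKM in control MII oocytes and 8.22 FPKM with BYBX. Levels were compared with limma on log2(FPKM + 1) for the 9202 entries whose mean over the 3 group means was at least 1 FPKM, and a difference was called where the p adjusted by Benjamini-Hochberg was under 0.05. The filter left 29 member entries, all of which had at least 1 FPKM in GV oocytes and with BYBX. Among them, 12 lay below 1 FPKM with DMSO and so passed through the other groups, which makes the counts of calls, and the medians over tested members, a description only.

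Of the 29 tested entries, 28 were lower and 0 higher in control MII than in GV oocytes, where 88.3% of all tested entries were called lower and 0.272% higher. The share of members called was thus near that of all entries. The median log2 difference was -3.25 over the members and -1.83 over all tested entries, and 25 of the 29 members lay below the median of all. Under BYBX, 26 members were called higher than under DMSO and 0 lower, where 65.2% of all entries were called higher and 0.0326% lower. The median difference here was 1.81 over the members and 0.84 over all, and 25 of the 29 lay above the median of all. Against GV oocytes, 23 members were still lower with BYBX and 0 higher, where 69.2% of all entries were called lower and 0.315% higher, with medians of -1.45 and -0.99. At the same total FPKM 3 of these 23 calls remained. The 3 comparisons share libraries and are not independent of each other.

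**Figure D2:**
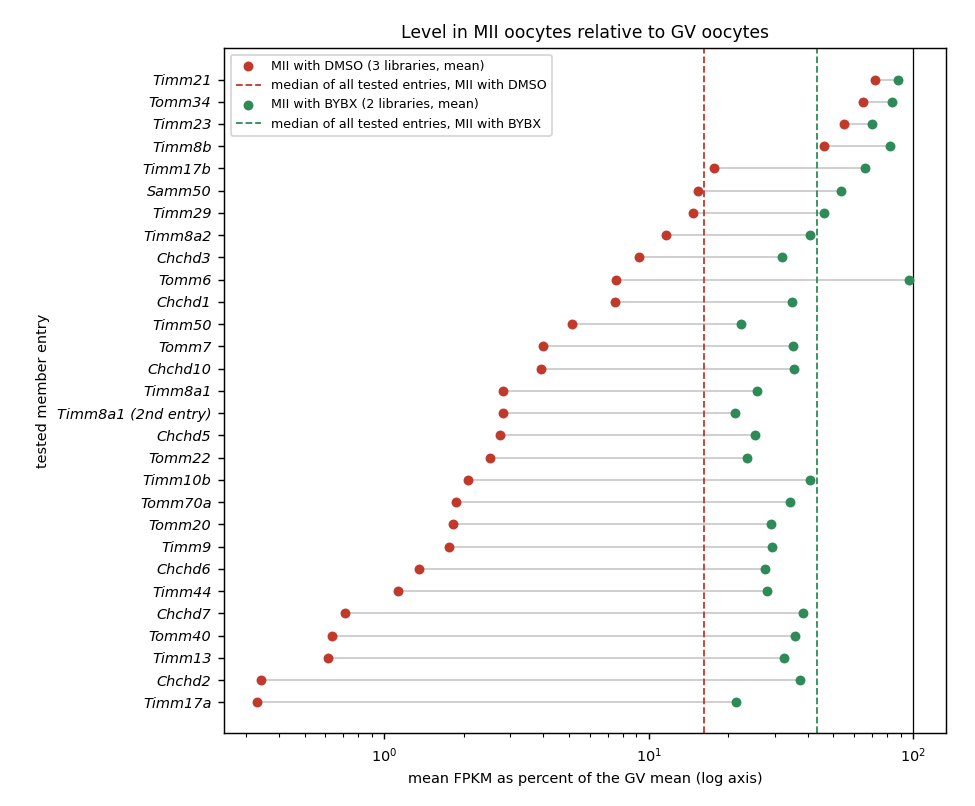
Mean FPKM of each tested member in MII oocytes with DMSO (red) and with BYBX (green) as percent of the GV mean, on a log axis, with dashed lines at the median over all tested entries. With DMSO the median member kept 2.82% of its GV level where the median entry kept 16.3%, and with BYBX 35.1% where the median entry kept 43.4%.

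The TIM23 complex held the member with the greatest fall among those tested. Timm17a, a channel subunit of that complex, lies at chr1:135295213-135313778 on the minus strand (GRCm38). Its level was 638 and 625 FPKM in GV libraries, 1.94, 2.53 and 1.79 FPKM with DMSO, and 140.5 and 129 FPKM with BYBX. It was the most abundant member in GV oocytes and held 0.331% of that level in control MII oocytes. The log2 difference was -7.69 ± 0.24 (SE, limma adjusted p = 2.4e-10) between control MII and GV oocytes, the 5th lowest of all 9202 tested entries. Between BYBX and DMSO it was 5.47 ± 0.24 (limma adjusted p = 2.4e-08), the 6th highest of all. With BYBX the transcript was still below GV by -2.22 ± 0.27 (limma adjusted p = 6.5e-05), the lowest value among the members in that comparison.

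Timm17b, an X-linked paralog of Timm17a that can take its place in the complex, was set beside it after its values had been seen. Its FPKM was 9.24 and 8.77 in GV, 1.31, 1.45 and 2.003 with DMSO, and 7.48 and 4.43 with BYBX. The ratio of Timm17a to Timm17b within a library was 69.0 and 71.3 in GV, 1.48, 1.75 and 0.894 with DMSO, and 18.8 and 29.2 with BYBX. In control MII oocytes the paralogs therefore stood at similar levels, whereas Timm17a prevailed in every GV and BYBX library. Timm17b fell by 1.96 on the log2 scale from GV to control MII (limma adjusted p = 4.2e-06) and was higher by 1.40 with BYBX than with DMSO (limma adjusted p = 0.00024). Against GV its difference with BYBX was -0.56 (limma adjusted p = 0.080), which became -0.88 (adjusted p = 0.018) without BYBX library 1 and 0.30 at the same total FPKM.

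Timm50, the receptor of the TIM23 complex, had 121 and 91.1 FPKM in GV, 7.37, 3.58 and 5.36 FPKM with DMSO, and 20.6 and 27.0 FPKM with BYBX. Timm44, which tethers the motor to the channel, had 37.4 and 28.1 FPKM in GV, 0.413, 0.570 and 0.131 FPKM with DMSO, and 8.89 and 9.42 FPKM with BYBX. For both genes the 3 groups did not overlap. The log2 difference between control MII and GV was -4.08 ± 0.29 for Timm50 (limma adjusted p = 1.5e-08) and -4.62 ± 0.24 for Timm44 (limma adjusted p = 8.6e-10). With BYBX they were higher than with DMSO by 1.98 ± 0.29 and 2.90 ± 0.24 (limma adjusted p = 5.6e-05 and 3.2e-07). Timm50 remained at 22.5% of its GV level with BYBX, with a difference of -2.11 ± 0.32 (limma adjusted p = 0.00013) that was among the 3 lowest of the tested members and was -1.13 (adjusted p = 0.051) at the same total FPKM.

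Timm23, the central channel protein of the same complex, behaved otherwise. Its level was 40.7 and 34.2 FPKM in GV, 20.6, 19.8 and 21.5 FPKM with DMSO, and 25.5 and 26.8 FPKM with BYBX. The difference was -0.83 ± 0.24 between control MII and GV (limma adjusted p = 0.0050), but 0.997 at the same total FPKM. It was 0.33 ± 0.24 between BYBX and DMSO (limma adjusted p = 0.23) and -0.50 ± 0.26 between BYBX and GV (limma adjusted p = 0.10), and -0.54 and 0.46 at the same total. The ratio of Timm50 to Timm23 was 2.97 and 2.66 in GV, 0.181 to 0.357 with DMSO, and 0.806 and 1.008 with BYBX, so the receptor transcript exceeded the channel transcript in both GV libraries and was below it in all libraries with DMSO. Timm23 is uncertain as a single gene, because 90.9% of the 50-base stretches of its transcript also occur in transcripts of near-identical copies such as Gm10273, and only uniquely mapped reads were counted.

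Timm21, which links the complex to TOM, had the smallest difference of the 29 tested entries between control MII and GV on the deposited scale. It had 5.66 and 4.00 FPKM in GV, 3.66, 3.73 and 3.01 FPKM with DMSO, and 3.99 and 4.46 FPKM with BYBX. Its difference between control MII and GV was -0.37 ± 0.23 and was the only one of the 29 not called (limma adjusted p = 0.13), and it was 1.15 at the same total. It was called without GV library 2 (-0.58, adjusted p = 0.045). Between BYBX and DMSO the difference was 0.23 ± 0.23 (limma adjusted p = 0.38; -0.51 at the same total), and between BYBX and GV -0.15 ± 0.25 (limma adjusted p = 0.61; 0.64 at the same total). Without GV library 1 the last was 0.062. In all, 5 of the 6 TIM23 and motor members fell from GV to control MII on the deposited scale, Timm23 among them, 4 were higher with BYBX than with DMSO, and 3 were below GV with BYBX, where 88.3%, 65.2% and 69.2% of all entries were called in these directions.

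**Figure D3:**
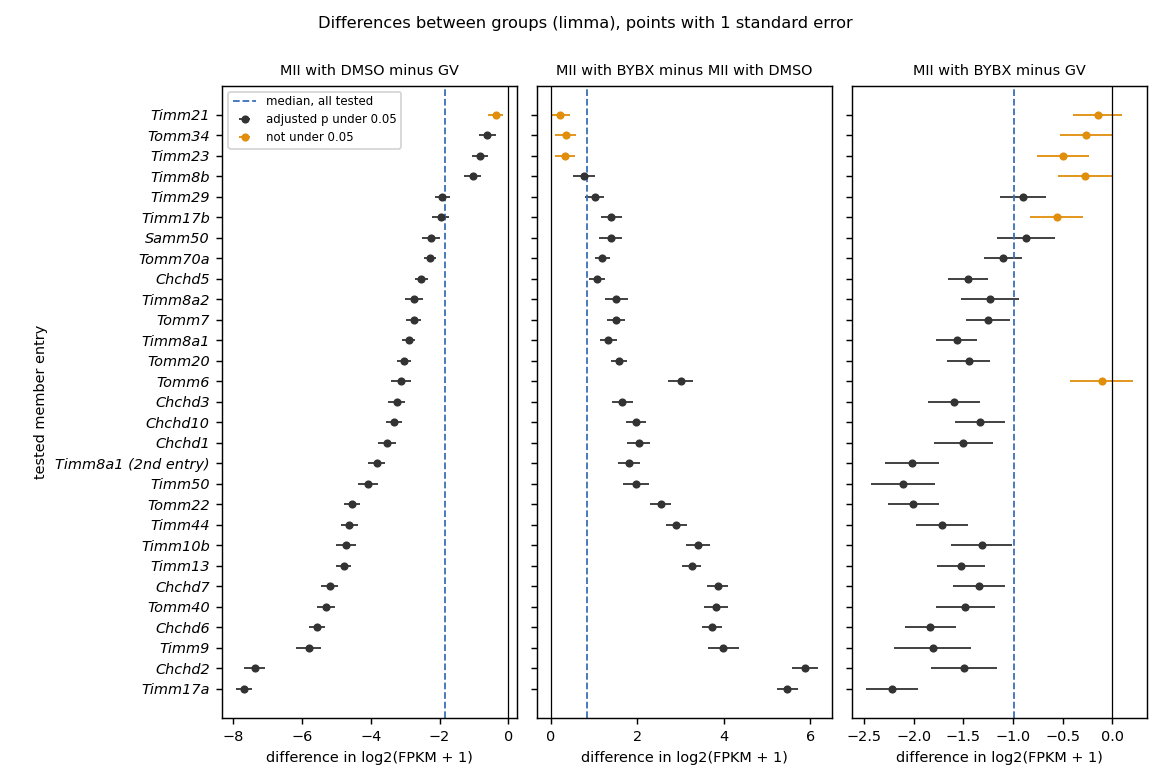
Difference in log2(FPKM + 1) of each tested member in the 3 comparisons, with 1 standard error from limma; black points have an adjusted p under 0.05, orange points do not, and the dashed line is the median over all tested entries. The members at the bottom of the first panel, Timm17a and Chchd2, stand highest in the second, while Timm21, Tomm34 and Timm23 lie near 0 in both on the deposited scale.

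All 6 tested TOM transcripts fell from GV to control MII and were higher with BYBX than with DMSO, with log2 differences from -5.30 to -2.29 and from 1.19 to 3.82, where 88.3% of all entries were called lower and 65.2% higher. Tomm40, the channel of the outer membrane, had 52.5 and 48.9 FPKM in GV, 0.173, 0.234 and 0.555 FPKM with DMSO, and 23.3 and 13.1 FPKM with BYBX. Tomm22, the central receptor, had 53.1 and 52.7 FPKM in GV, 0.908, 1.58 and 1.51 FPKM with DMSO, and 12.1 and 12.8 FPKM with BYBX. Channel and central receptor thus had like levels in GV oocytes and were both near or below 1 FPKM in control MII oocytes. The differences between control MII and GV were -5.30 ± 0.27 and -4.54 ± 0.24 (limma adjusted p = 7.8e-10 and 9.0e-10). With BYBX, Tomm40 was higher than with DMSO by 3.82 ± 0.27 and Tomm22 by 2.54 ± 0.24 (limma adjusted p = 1.0e-07 and 9.1e-07).

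The presequence receptor Tomm20 had 7.56 and 9.36 FPKM in GV, 0.113, 0.161 and 0.190 FPKM with DMSO, and 2.23 and 2.69 FPKM with BYBX. Tomm70a, the receptor for carriers, had 4.23 and 4.35 FPKM in GV, 0.0641, 0.0820 and 0.0953 FPKM with DMSO, and 1.31 and 1.63 FPKM with BYBX. Tomm7, a small subunit, had 7.38 and 8.35 FPKM in GV, 0.383, 0.247 and 0.307 FPKM with DMSO, and 3.31 and 2.21 FPKM with BYBX. Each of the 3 was below 0.4 FPKM in every control MII library and above 1 FPKM in every BYBX library. In the comparison of control MII with GV their differences were -3.03, -2.29 and -2.76, which understate the change of genes at this level because of the added 1 FPKM.

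Tomm6, another small TOM subunit, at chr17:47686646-47688386 on the minus strand (GRCm38), was the member nearest to its GV level with BYBX. It had 22.4 and 19.6 FPKM in GV, 1.002, 1.63 and 2.13 FPKM with DMSO, and 26.4 and 14.2 FPKM with BYBX. The difference was -3.11 ± 0.29 between control MII and GV (limma adjusted p = 2.0e-07) and 3.003 ± 0.29 between BYBX and DMSO (limma adjusted p = 1.2e-06). Between BYBX and GV it was -0.11 ± 0.32 (limma adjusted p = 0.78; 0.82 at the same total), and its BYBX mean was 96.5% of the GV mean, the highest of the tested members. The BYBX libraries lay on either side of the GV libraries, and without BYBX library 2 the difference was 0.32. Tomm6 shares 93.0% of its 50-base stretches with Gm21981, Tomm6os and Usp49, whose exons overlap it, and the libraries keep no strand, so these genes cannot be told apart. Tomm6os itself was listed at 0 in 6 of 7 libraries.

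The other TOM members were not tested. Tomm20l was listed at 0 in all libraries, and Tomm5 and Tomm40l reached at most 0.932 and 0.463 FPKM in any library.

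Tomm34 is named with the outer-membrane genes but encodes a cytosolic cochaperone of heat shock proteins, and it was the most abundant member in control MII oocytes. It lies at chr2:164053540-164071169 on the minus strand (GRCm38). Its level was 112 and 93.3 FPKM in GV, 66.3, 60.5 and 73.0 FPKM with DMSO, and 88.1 and 82.5 FPKM with BYBX. The difference between control MII and GV was -0.61 ± 0.24 (limma adjusted p = 0.029), but 1.25 at the same total FPKM. The call was lost without GV library 1 (-0.48, adjusted p = 0.11), without DMSO library 1 (-0.61, adjusted p = 0.057) and without DMSO library 2 (-0.55, adjusted p = 0.11). With BYBX the difference was 0.36 ± 0.24 against DMSO (limma adjusted p = 0.21) and -0.26 ± 0.27 against GV (limma adjusted p = 0.39), with -0.53 and 0.72 at the same total.

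Within a library, Tomm34 made up 4.32% and 3.66% of the summed member FPKM in GV, 49.2%, 44.1% and 45.0% with DMSO, and 9.05% and 11.5% with BYBX. These shares do not depend on the scaling of a library. Of the 6 members with at least 100 FPKM in GV oocytes, Timm17a, Timm9, Chchd2, Chchd6 and Timm50 kept 0.331% to 5.14% of that level in control MII oocytes and Tomm34 kept 64.9%. Timm17a, Timm9 and Chchd2 together made up 62.0% and 64.5% of the member sum in GV, 6.70%, 9.86% and 12.7% with DMSO, and 56.9% and 50.1% with BYBX. Tomm34, Timm23, Timm8b and Timm21 together made up 6.63% and 5.69% in GV, 70.9%, 67.2% and 63.5% with DMSO, and 13.3% and 17.3% with BYBX. These sets were formed after the values had been seen.

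**Figure D4:**
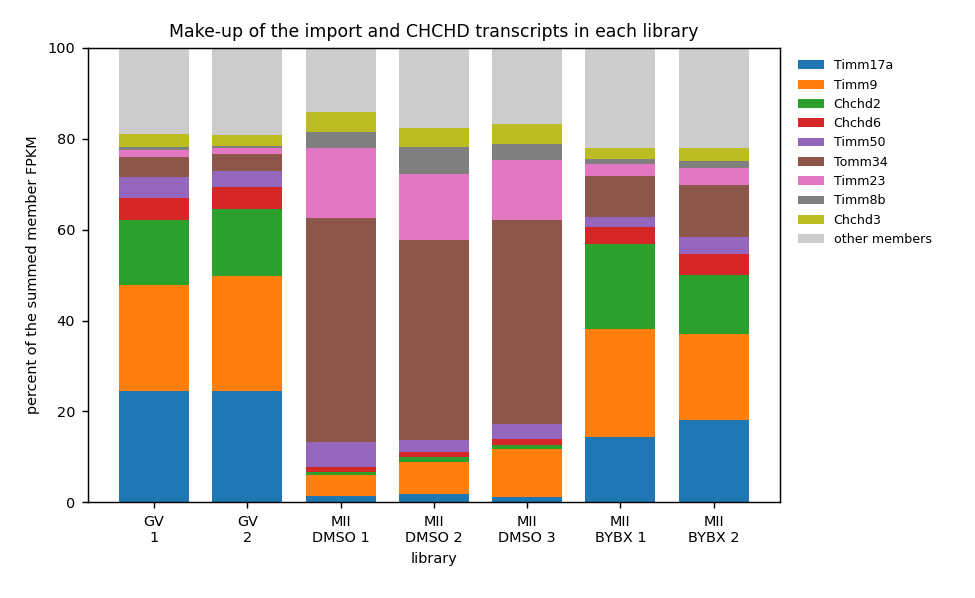
Share of the summed member FPKM taken by single genes in each library, as stacked bars from 0 to 100%. Timm17a, Timm9 and Chchd2 fill more than 50% of each GV and BYBX bar and at most 12.7% of each bar with DMSO, where Tomm34 alone takes 44.1% to 49.2%.

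The small TIM chaperones form hexamers in the intermembrane space, Timm9 with Timm10 and the Timm8 proteins with Timm13. Timm9, at chr12:71123173-71136684 on the minus strand (GRCm38), had 602 and 644 FPKM in GV, 6.23, 9.62 and 17.2 FPKM with DMSO, and 229.6 and 136 FPKM with BYBX. Its partner Timm10 had 0.614 and 0.0958 FPKM in GV, 0, 0.0400 and 0 FPKM with DMSO, and 0 and 0.365 FPKM with BYBX, and was not tested. The partners were thus at very different levels in all 7 libraries of these tables. Timm9 differed by -5.80 ± 0.36 between control MII and GV (limma adjusted p = 3.3e-09), by 3.99 ± 0.36 between BYBX and DMSO (limma adjusted p = 6.3e-07) and by -1.81 ± 0.39 between BYBX and GV (limma adjusted p = 0.0012), the last being -0.82 (adjusted p = 0.12) at the same total FPKM. The end of Timm9 overlaps 49 exonic bases of Tomm20l on the other strand, but Tomm20l was listed at 0.

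Timm13 had 29.5 and 34.4 FPKM in GV, 0.117, 0.200 and 0.270 FPKM with DMSO, and 10.6 and 10.3 FPKM with BYBX. Timm8b, which belongs to the Timm8 family that pairs with it, had 13.7 and 13.3 FPKM in GV, 4.84, 8.204 and 5.57 FPKM with DMSO, and 11.4 and 10.6 FPKM with BYBX. Timm13 was thus above Timm8b in GV oocytes and far below it in control MII oocytes. Their differences between control MII and GV were -4.78 ± 0.22 and -1.04 ± 0.25 (limma adjusted p = 4.0e-10 and 0.0016), and that of Timm8b was 0.66 at the same total FPKM. Between BYBX and DMSO, Timm13 differed by 3.26 ± 0.22 and Timm8b by 0.76 ± 0.25 (limma adjusted p = 7.7e-08 and 0.017), and Timm8b by -0.029 at the same total. The call for Timm8b was lost without DMSO library 1 (0.63, adjusted p = 0.071), DMSO library 3 (0.71, adjusted p = 0.055) or BYBX library 1 (0.72, adjusted p = 0.082).

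Timm8a1, the X-linked Timm8 gene, is listed as 2 entries, for which no transcript names are given. The first had 7.76 and 8.59 FPKM in GV, 0.128 to 0.304 FPKM with DMSO, and 1.91 and 2.28 FPKM with BYBX. The other had 19.3 and 23.8 FPKM in GV, 0.254 to 1.00015 FPKM with DMSO, and 4.19 and 4.92 FPKM with BYBX. Both entries moved in the same way, by -2.90 and -3.83 from GV to control MII (limma adjusted p = 6.6e-09 and 4.8e-09) and by 1.33 and 1.81 from DMSO to BYBX (limma adjusted p = 4.4e-05 and 2.5e-05). The second entry was among the 3 lowest of the tested members against GV with BYBX, at -2.02 ± 0.27 (limma adjusted p = 7.2e-05), and at -1.10 (adjusted p = 0.052) at the same total FPKM. Timm8a1 shares 41.0% of its 50-base stretches with Gm9797 and is uncertain as a single gene. All 6 tested small TIM entries, Timm8a2 included, fell from GV to control MII and were higher with BYBX than with DMSO on the deposited scale, and 5 of them, all but Timm8b, were below GV with BYBX; the shares of all entries called in these directions were 88.3%, 65.2% and 69.2%.

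In the TIM22 complex, the channel gene Timm22 had 0.405 and 0.711 FPKM in GV, 0.00592, 0 and 0.0320 FPKM with DMSO, and 0.393 and 0.245 FPKM with BYBX, and was too low to be tested. The accessory subunits Timm10b and Timm29 were both tested. They fell by 4.72 and 1.92 on the log2 scale from GV to control MII and were higher by 3.41 and 1.02 with BYBX than with DMSO. Timm10b shares 49.5% of its 50-base stretches with Gm45799, an overlapping gene model.

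Samm50, the core of the SAM complex, had 14.04 and 13.3 FPKM in GV, 1.55, 2.11 and 2.64 FPKM with DMSO, and 9.39 and 5.18 FPKM with BYBX. It fell by 2.25 from GV to control MII (limma adjusted p = 2.3e-06) and was higher by 1.39 with BYBX than with DMSO (limma adjusted p = 0.00050). Against GV the difference with BYBX was -0.87 ± 0.29 (limma adjusted p = 0.018; 0.025 at the same total). That call was lost without GV library 1 (-0.83, adjusted p = 0.099), GV library 2 (-0.91, adjusted p = 0.061) or BYBX library 2 (-0.49, adjusted p = 0.20).

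Chchd2, a protein of the intermembrane space that also acts on nuclear genes for respiratory chain subunits, had a change of the size of that of Timm17a. The gene lies at chr5:129881156-129887470 on the minus strand (GRCm38). Its level was 369.6 and 375 FPKM in GV, 0.840, 1.38 and 1.60 FPKM with DMSO, and 184 and 94.2 FPKM with BYBX. The difference was -7.38 ± 0.30 between control MII and GV (limma adjusted p = 2.6e-10), the 10th lowest of the 9202 entries. Between BYBX and DMSO it was 5.88 ± 0.30 (limma adjusted p = 2.4e-08), the 2nd highest of the 9202. The BYBX mean was 109-fold the DMSO mean, and leaving out 1 library at a time gave log2 differences of 5.40 to 6.36. Against GV the difference with BYBX was -1.49 ± 0.33 (limma adjusted p = 0.0014), a call that was lost at the same total FPKM (-0.50, adjusted p = 0.20) and after median centring (-0.47, adjusted p = 0.23). Chchd2 shares 48.4% of its 50-base stretches with Zbed5, Gm6222 and other copies, so its level is uncertain as that of a single gene.

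Chchd10, the paralog of Chchd2, was less abundant than Chchd2 in every library, by the narrowest margin in control MII oocytes. It had 12.6 and 16.9 FPKM in GV, 0.528, 0.418 and 0.783 FPKM with DMSO, and 5.95 and 4.49 FPKM with BYBX. The ratio of Chchd2 to Chchd10 was 29.4 and 22.2 in GV, 1.59, 3.30 and 2.04 with DMSO, and 30.9 and 20.98 with BYBX. With BYBX this ratio lay around its GV values, unlike that of Timm17a to Timm17b. Chchd10 fell by 3.31 from GV to control MII and was higher by 1.98 with BYBX than with DMSO (limma adjusted p = 1.1e-08 and 6.8e-06).

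Chchd3 and Chchd6 encode MICOS subunits, which hold the cristae junctions of the inner membrane. Chchd3 had 73.6 and 61.2 FPKM in GV, 5.81, 5.72 and 7.07 FPKM with DMSO, and 22.4 and 20.7 FPKM with BYBX. Chchd6 had 129.6 and 122 FPKM in GV, 1.53, 1.62 and 1.95 FPKM with DMSO, and 36.7 and 32.6 FPKM with BYBX. The order of these subunits turned over, since the ratio of Chchd6 to Chchd3 was 1.76 and 1.99 in GV, 0.263 to 0.282 with DMSO, and 1.64 and 1.57 with BYBX. Both fell from GV to control MII, by 3.25 and 5.56, and both were higher with BYBX than with DMSO, by 1.65 and 3.72 (limma adjusted p = 4.8e-05 and 4.9e-08). Chchd1, a subunit of the mitochondrial ribosome, had 65.5 and 70.0 FPKM in GV, 3.58, 5.30 and 6.27 FPKM with DMSO, and 26.9 and 20.2 FPKM with BYBX, with differences of -3.53 and 2.03 in these comparisons (limma adjusted p = 2.5e-08 and 2.0e-05). The remaining CHCHD genes Chchd5 and Chchd7 moved in the same directions. Chchd4, the oxidoreductase that folds many of these proteins, was at 0.252 and 0.196 FPKM in GV, 0.0574, 0 and 0.0467 FPKM with DMSO, and 0.0982 and 0.218 FPKM with BYBX, and was too low to be tested.

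The direction of the smallest changes depends on how the libraries are scaled. Setting every library to the same total FPKM moved the median difference of all entries from -1.83 to -0.56 between control MII and GV, from 0.84 to 0.34 between BYBX and DMSO, and from -0.99 to -0.17 between BYBX and GV. Relative to that median, the member median moved little, being lower by -1.41 as deposited and by -1.35 at the same total in control MII against GV, and higher by 0.98 and 0.93 with BYBX against DMSO. At the same total, 24 members were lower and 4 higher in control MII than in GV oocytes, where 49.5% of all entries were lower and 23.3% higher. The 4 were Tomm34, Timm21, Timm23 and Timm8b, at 1.25, 1.15, 0.997 and 0.66, all of which have a negative difference on the deposited scale, where Timm21 was not called. With BYBX against DMSO, 24 members were higher and 2 lower, where 39.9% of all entries were higher and 8.22% lower. The 2 that were lower were Tomm34 and Timm23, at -0.53 and -0.54. With BYBX against GV, 3 members remained lower, Timm17a, Tomm22 and Chchd6, and 1 was higher, Tomm34, where 13.3% of all entries were lower and 5.30% higher.

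Centring the libraries on the median log2 level shifted the values further. Between control MII and GV, 18 members were lower and 4 higher, the same 4 as at the same total, where 26.7% of all entries were lower and 48.8% higher. Between BYBX and DMSO, 13 members were higher and 3 lower, where 18.4% were higher and 43.9% lower. Between BYBX and GV, 7 members were lower and 4 higher, where 13.6% were lower and 15.2% higher. The 13 members called higher between BYBX and DMSO here, among them Timm17a, Chchd2, Timm9, Tomm40 and Chchd6, were called higher in that comparison, and lower in control MII against GV, under all 3 scalings. This is a description only, since the 13 were picked by their call after centring and both comparisons use the same DMSO libraries. Some of them, such as Tomm40, also lay below 1 FPKM with DMSO and passed the filter through the other groups.

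**Figure D5:**
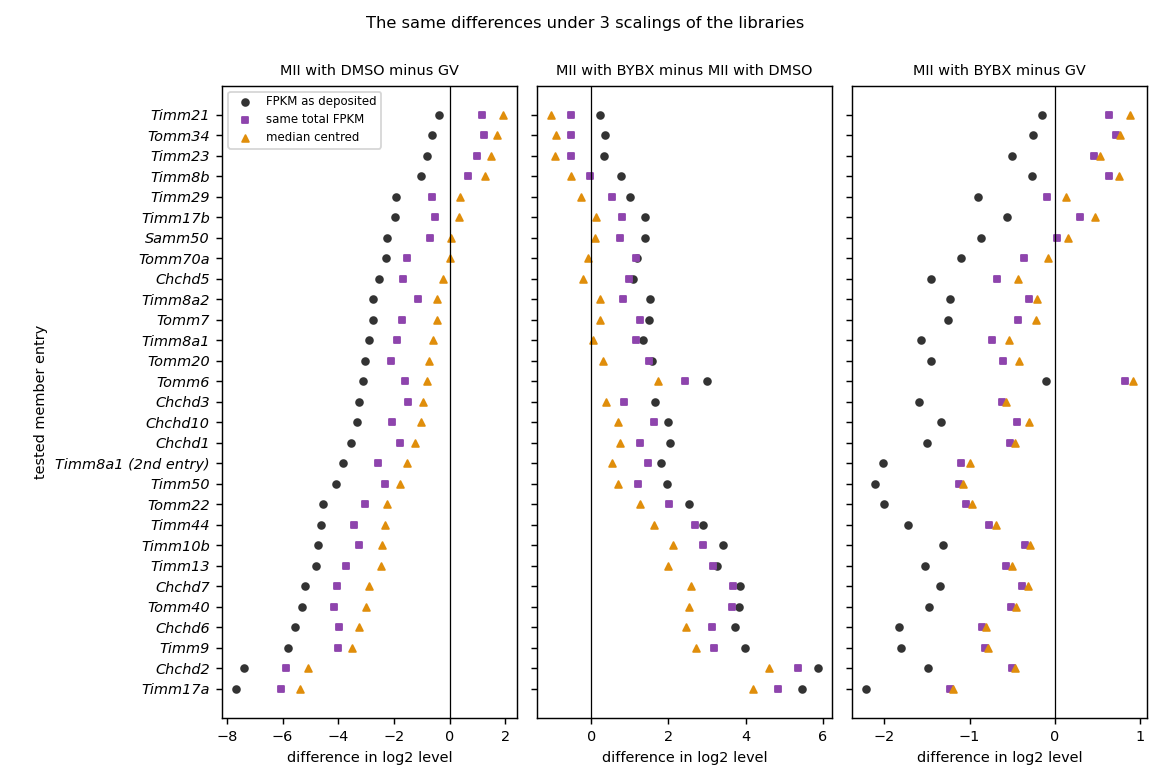
Log2 difference of each tested member in the 3 comparisons with FPKM as deposited (circles), at the same total FPKM (squares) and after median centring (triangles). Median centring shifts all members of a panel by the same amount, whereas the same total FPKM shifts them by amounts that differ between members. Under both rescalings Timm21, Tomm34, Timm23 and Timm8b change sign in every panel, and Tomm6, Samm50 and Timm17b do in the third. Other changes of sign, such as those of Timm29, appear only after median centring.

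Sequence features that the rule did not use were read from 1 GENCODE vM21 transcript per gene. The tested members had short transcripts, with a median of 1421 bases against 2825 over the 8773 tested entries that matched a coding transcript, and short coding regions of 435 against 1341 bases. Cytoplasmic polyadenylation elements were searched as TTTTAT or TTTTAAT in the last 100 bases, on the transcript strand. They were found in 5 of the 29 tested entries (17.2%), where 20.1% of all matched entries had one. The 5 members, with Tomm5 untested beside them, include 2 of the 4 that kept the largest part of their GV level. For each of the 5, a window around an element is printed 5′ to 3′, as DNA with the element in capitals.
Tomm34: taattgaactgaTTTTATtgaagtgtgtgt
Timm8b: tcaaaagtgaaaTTTTATttatgggaattc
Timm29: gaattacaaatgTTTTAATtagtgtgtatt
Tomm6: aaaagacaggtaTTTTATtcttttaataag
Tomm70a: tatgaaaacaatTTTTAATaaaaagtttta
These 30-base windows lie in the last exon, within the 3′ untranslated region, at chr2:164053570-164053599 (minus strand) for Tomm34, chr9:50605243-50605272 (plus) for Timm8b, chr9:21595896-21595925 (plus) for Timm29, chr17:47686714-47686743 (minus) for Tomm6 and chr16:57156670-57156699 (plus) for Tomm70a, all on GRCm38. The element starts 48 bases before the annotated transcript end in Tomm34, 66 in Timm8b, 63 in Timm29, 86 in Tomm6 and 24 in Tomm70a. Tomm6 holds another copy, TTTTAAT, 78 bases before its end.

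The members with an element did not all move alike. Between control MII and GV, Tomm34 and Timm8b differed by -0.61 and -1.04, Timm29 and Tomm70a by -1.92 and -2.29, and Tomm6 by -3.11. These differences do not rank the falls, because the added 1 FPKM shrinks those of low members, and it acts on the medians below too. As percent of the GV mean, control MII oocytes kept 64.9% of Tomm34, 46.0% of Timm8b, 14.8% of Timm29, 7.55% of Tomm6 and 1.88% of Tomm70a. The median over the 5 was -1.92 and over the 24 tested entries without an element -3.68, and over all matched entries it was -1.24 for the 1766 with an element and -1.99 for the 7007 without. Between BYBX and DMSO the medians were 1.02 and 1.98 in the members, and 0.58 and 0.92 over all. Timm23 and Timm21, which also kept much of their level, had no element in this window.

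G-quadruplex motifs were searched as 4 runs of at least 3 G with spacers of 1 to 7 bases on the transcript strand. A spacer could be any base, G included, so a long unbroken stretch of G can count as more than 1 run. By this search they were found in 3 of the 29 tested entries (10.3%) and in 17.4% of all matched entries. The match in Tomm20 was found only because G served as spacer within a long stretch of G. The other matches are shown with the G runs in capitals. In the abundant Timm17a the motif lies in the 3′ untranslated region, and in Tomm40 in the 5′ untranslated region.
Timm17a: GGGaatcccaGGGctccaGGGGaatGGG
Tomm40: GGGtGGGaaGGGcctGGGG
They lie at chr1:135298536-135298563 and chr7:19715319-19715337, both on the minus strand of GRCm38, in exon 6 of 6 and exon 1 of 9. Timm17a and Tomm40 fell by 7.69 and 5.30 on the log2 scale from GV to control MII, and Tomm20 by 3.03, while Chchd2 and Timm9, with differences of -7.38 and -5.80, had no such motif in the transcript used. The added 1 FPKM shrinks the differences of low members, here and in the medians below. Tomm20 kept 1.83% of its GV level in control MII oocytes and Timm9 kept 1.77%. The medians in this comparison were -5.30 for the 3 members with a motif and -3.18 for the 26 without, but over all matched entries -1.57 for the 1525 with a motif and -1.89 for the 7248 without. A match says only that these letters are present.

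Import and intermembrane space genes outside the rule were counted from a list of 45, of which 44 were listed and 39 tested. Of these, 38 fell and 0 rose from GV to control MII oocytes, with a median difference of -2.99. BYBX against DMSO gave 33 higher and 0 lower (median 1.63), and BYBX against GV gave 31 lower and 0 higher (median -1.41). Over all entries 88.3% were called lower, 65.2% higher and 69.2% lower in the 3 comparisons. The tested genes include the motor chaperone Hspa9 and the processing peptidase subunit Pmpcb, while Pmpca, the other subunit, was on the list but not tested. At the same total FPKM, 29 were lower and 3 higher between control MII and GV, 25 higher and 0 lower between BYBX and DMSO, and 1 higher and 5 lower between BYBX and GV. The shares of all entries were then 49.5% lower and 23.3% higher, 39.9% higher and 8.22% lower, and 5.30% higher and 13.3% lower. The 1 gene not called lower in control MII than in GV was Romo1, a small inner-membrane protein, with group means of 44.3 FPKM in GV, 56.0 FPKM with DMSO and 66.3 FPKM with BYBX. It was named after its values had been seen, and its difference was 0.19 (limma adjusted p = 0.68).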

How the data were processed

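Oocyte libraries (2 GV, 3 MII with DMSO, 2 MII with BYBX) were prepared by Smart-seq2. Per the submitters' processing notes and the study's methods, the authors trimmed reads with Trim Galore 0.6.7, aligned them to mm10 with HISAT2 2.2.1 and estimated FPKM with Cufflinks 2.2.1 on UCSC gene models from uniquely mapped reads. The deposited FPKM values had been scaled by the authors to ERCC spike-in RNA, and batches to their GV samples; the factors and batches are not given in the sources used here. Depth is unknown, so no counting interval is given, and precision is that of 2 or 3 libraries a group.

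Of 25912 entries, 4 with a missing value were dropped. log2(FPKM + 1) was fitted with limma 3.58.1 in R 4.3.3 (lmFit, contrasts.fit, eBayes with an intensity trend), with all 7 libraries in 1 model of 3 group means, 4 residual degrees of freedom and 9202 entries of at least 1 FPKM as mean of group means. The tests are two-sided, with Benjamini-Hochberg adjustment over all tested entries. The script was tested on simulated data for BYBX against DMSO only. There a small part of the entries changed and the rest did not shift, unlike in these data. Python 3.11.15, numpy 2.4.6, pandas 2.3.3 and matplotlib 3.10.9 made the tables and plots.

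Values in every library are given for a core list of members and, in each comparison, the 3 highest and 3 lowest log2 differences; others were named after their values were seen where said. The members and lists were chosen with earlier results of these data known. GENCODE vM21 (GRCm38, the same assembly as mm10) gave positions and transcripts, with 1 coding transcript per gene (best APPRIS class, then a RefSeq match, then length); 35 of 35 member symbols matched. The alternatives tried were: no filter or a filter at 5 FPKM, a pseudocount of 0.1, median centring, rescaling to the same total FPKM, separate fits for each pair of groups, a replicate block, no trend, a minimum of 2-fold and leaving out each library; a crossed block was added after seeing the data.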

Additional observations from a re-analysis of the deposited data

How the results depend on the processing

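Under a pseudocount of 0.1, no intensity trend and separate fits for each pair of groups, every call and direction of the 29 tested members was kept in all 3 comparisons, as was that of the 22 members left by a filter at 5 FPKM; without a filter on level 2 calls changed, Samm50 (lost) and Timm23 (gained, adjusted p = 0.034), both between BYBX and GV. At the same total FPKM the members called were 4 higher between control MII and GV, 2 lower between BYBX and DMSO, and 1 higher and 3 lower between BYBX and GV; after median centring they were 4 higher and 18 lower, 13 higher and 3 lower, and 4 higher and 7 lower. At the same total the member medians were -1.91, 1.27 and -0.50, and the summed member FPKM was 1413 in GV and 292 with DMSO. In these 2 fits only the scaling of the libraries was changed. At the same total FPKM the 1 FPKM was added after rescaling, so its weight changed too.

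At the same total FPKM, signs turned between control MII and GV for Timm21 (1.15), Timm23 (0.997), Timm8b (0.66) and Tomm34 (1.25), between BYBX and DMSO for Timm21 (-0.51), Timm23 (-0.54), Timm8b (-0.029) and Tomm34 (-0.53), and between BYBX and GV for Samm50 (0.025), Timm17b (0.30), Timm21 (0.64), Timm23 (0.46), Timm8b (0.63), Tomm34 (0.72) and Tomm6 (0.82). After median centring they turned between control MII and GV for Samm50 (0.049), Timm17b (0.34), Timm21 (1.93), Timm23 (1.48), Timm29 (0.39), Timm8b (1.27), Tomm34 (1.69) and Tomm70a (0.012), between BYBX and DMSO for Chchd5 (-0.20), Timm21 (-1.05), Timm23 (-0.95), Timm29 (-0.26), Timm8b (-0.51), Tomm34 (-0.92) and Tomm70a (-0.089), and between BYBX and GV for Samm50 (0.16), Timm17b (0.47), Timm21 (0.88), Timm23 (0.53), Timm29 (0.13), Timm8b (0.75), Tomm34 (0.77) and Tomm6 (0.92).

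Leaving out 1 library at a time gave 27 to 29 members lower in control MII than GV, 25 to 26 higher with BYBX than DMSO, and 22 to 24 lower with BYBX than GV. The median between BYBX and GV ranged from -1.51 to -1.17, the last without BYBX library 2. Leaving out a GV or BYBX library leaves a lone sample, which is assumed to vary like the other groups. Between BYBX and GV, Timm21 ranged from -0.35 to 0.062 and Tomm6 from -0.53 to 0.32.

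Deviations of same-numbered libraries correlated at 0.28 and 0.49 between GV and control MII and negatively, down to -0.60, in the other comparisons. GV and BYBX have 2 libraries each, whose deviations mirror each other, so both numbers give the same value there (-0.33). The libraries were taken to share only a number, but these values cannot show whether they were processed together. With the replicate number as a block, 27 members were lower in control MII than GV, 25 higher with BYBX than DMSO and 23 lower with BYBX than GV; the calls for Tomm34 (-0.68, adjusted p = 0.058) and Timm8b (0.71, adjusted p = 0.075) were lost. Crossing the pairing of GV and BYBX libraries, chosen after seeing the data, gave 23 lower and 0 higher. Low members such as Timm10, Timm22 and Chchd4 lie where the depth, which is unknown, sets the limit.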
